A study of Homo sapiens with 68 samples.

Results

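The transcripts of the 3 human RBFOX genes, RBFOX2, RBFOX1 and RBFOX3, were examined as targets of RNA-binding proteins in HEK293T cells, an established human embryonic kidney line. Every deposited peak assigned to one of these genes by its Ensembl identifier was taken, which gave 12659 of 15800601 peaks over 68 libraries. RBFOX2 (ENSG00000100320) held 12394 of them, RBFOX3 (ENSG00000167281) 189 and RBFOX1 (ENSG00000078328) 76. In hg19 the listed peaks spanned 289.5 kb on the minus strand for RBFOX2 (chr22:36134880-36424417), 1620 kb on the plus strand for RBFOX1 (chr16:6078435-7698376) and 460.2 kb on the minus strand for RBFOX3 (chr17:77085924-77546156).

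RBFOX proteins are sequence-specific RNA-binding proteins that recognise GCAUG elements, mostly in introns, and thereby promote or repress the inclusion of nearby alternative exons. RBFOX2 is made in many tissues, while RBFOX1 is best known from neurons, heart and muscle and RBFOX3, the antigen known as NeuN, from mature neurons. Members of the family are known to bind the transcripts of RBFOX genes, including their own, and to change their splicing. The 3 other precipitated proteins are abundant nuclear binders of pre-mRNA: hnRNPA1 acts in splicing repression and RNA packaging, hnRNP C (hnRNPc in the group names) binds uridine tracts, and hnRNPI, also called PTBP1, binds pyrimidine tracts and represses exons.

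The assay was TLC-CLIP, in which protein and RNA are joined with ultraviolet light, 1 protein is immunoprecipitated and the RNA attached to it is sequenced. The 68 libraries formed 34 groups of 2 replicates: 14 libraries carried the RBFOX2 antibody (named RBM9, a synonym of RBFOX2), 12 hnRNPA1, 32 hnRNPc and 10 hnRNPI. Crosslinked libraries of 50000 cells were made for all 4 antibodies with polyacrylamide gel purification (PAGE) at 0.005 U of RNase, without PAGE, and without PAGE but with RecJ, an exonuclease used to remove adapter; these 24 libraries are called the core libraries here. Further groups used 0.025 U of RNase (hnRNPA1 and hnRNPc), fewer cells (RBFOX2 and hnRNPc at 10000 and 1000 cells with 0.001 and 0.0001 U of RNase, and hnRNPc groups titled 5k and 500), omission of crosslinking with and without PAGE (all 4 antibodies, 16 libraries), or other regions of the hnRNPc gel between 50 and 250 kDa (8 libraries). No transgene, knockout or treatment is named for any of these groups. The 5k and 500 groups also carry a label of 50000 cells, so the titles and that label disagree, and the crosslinking step stands in the protocol text of all samples, so that its omission is known from the titles alone. Nothing in the labels says that replicates came from separate cultures, so the p-values measure the spread between these samples, which may be technical.

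Each library was deposited as a list of peaks, and the lists ranged from 303 to 523402 peaks. The total of sequenced reads is not known, so a gene's share of its library's peaks was used, as peaks per 100000 listed peaks. One of the core libraries stood apart: replicate 1 of hnRNPc with PAGE listed 3268 peaks, against 157375 or more in the others, and carried 2 peaks on RBFOX2. The crosslinked core lists of the RBFOX2 antibody were shorter (157375 to 260610 peaks) than those of hnRNPA1 (450313 to 523402) and hnRNPI (294597 to 353415). No exon, intron or UTR annotation of hg19 was used here, so positions on a transcript are given as the distance from the 5′ end of its listed peaks.

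The RBFOX2 transcript carried many peaks in the crosslinked core libraries of all 4 antibodies. It carried a peak in 64 of the 68 libraries, and the 4 others were gel-region libraries of 303 to 463 peaks. With the RBFOX2 antibody its rank by number of peaks was between 29 and 49 in the core libraries, among 13296 to 15114 genes listed. The rank was 58 to 116 with hnRNPA1, 42 to 76 with hnRNPI and 33 to 75 with hnRNPc, apart from rank 324 of 1395 genes in the shallow hnRNPc library. Without UV the rank was lower with some antibodies, in lists of fewer genes. With the RBFOX2 antibody and PAGE it was 182 and 510 of 6645 and 6069 genes, on 19 and 9 peaks. Without PAGE it was 265 and 123 of 8844 and 9606 genes with that antibody. With hnRNPI it was 519 and 435 of 5243 and 7534 genes with PAGE, and 1264 and 1092 of 7297 and 9498 without it. Ranks are not corrected for transcript length.

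With the RBFOX2 antibody the share of RBFOX2 transcript peaks varied little over the 6 core libraries. It was 76.0 and 74.4 per 100000 listed peaks with PAGE (198 and 155 peaks), 73.1 and 81.1 without PAGE (115 and 131 peaks), and 81.4 and 76.7 with RecJ (131 and 123 peaks). With hnRNPA1 it was 79.0 and 83.1 with PAGE, 62.5 and 65.9 without PAGE, and 69.5 and 64.5 with RecJ. hnRNPI gave 99.4 and 93.7 with PAGE, 80.4 and 79.2 without PAGE, and 84.4 and 86.5 with RecJ. hnRNPc gave 61.2 (the shallow library) and 109.8 with PAGE, 71.2 and 67.2 without PAGE, and 72.5 and 74.6 with RecJ. The values of the RBFOX2 antibody therefore lay above hnRNPA1 and below hnRNPI in the libraries without PAGE, with or without RecJ, except that 81.1 exceeded both hnRNPI values without PAGE, and below hnRNPA1 with PAGE.

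The first comparison asked whether RBFOX2 took more of its peaks from a family transcript than the 3 hnRNPs did. On the log2(share + 1) scale, averaged over the 3 library types, the RBFOX2 transcript differed by 0.00 between the RBFOX2 antibody (mean 77.1, n = 6) and the others (mean 78.0, n = 18), with an exact two-sided stratified permutation p of 0.999 (Benjamini-Hochberg adjusted p = 1.0 over 15746 genes). By library type the difference was -0.20 with PAGE, 0.12 without PAGE and 0.08 with RecJ. The median over all genes was 0.07, and by library type 0.31 with PAGE, which includes the shallow library, -0.004 without PAGE and -0.0006 with RecJ. Of all genes 46.5% were called, that is, had an adjusted p below 0.05 (32.9% higher and 13.6% lower with the RBFOX2 antibody). The RBFOX2 transcript was not among them. The difference did not pass the test, which does not show that the shares were equal.

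Counted by reads, the RBFOX2 transcript took less of the RBFOX2 libraries than of the others. The number that closes each peak's name was read as the reads over that peak, a meaning the files do not state. Per 100000 such reads, the RBFOX2 antibody gave 41.8 and 41.7 with PAGE, 14.4 and 15.3 without PAGE, and 15.2 and 17.1 with RecJ. hnRNPA1 ranged from 68.95 to 102.0 with a median of 72.2, hnRNPI from 96.9 to 120.6 with a median of 101.8, and hnRNPc from 61.9 to 99.55 with a median of 64.6 in 5 libraries, with 26.1 in the shallow one. Apart from that library, every value of the RBFOX2 antibody lay below every value of the others. The log2 difference was -1.82 (exact permutation p = 0.000137, adjusted p = 0.000586), against a median of -0.24 over all genes. By this measure 38.9% of all genes were called lower and 22.7% higher, and 9.77% of genes had a lower difference than RBFOX2. Without the shallow hnRNPc library it was -1.93 (exact permutation p = 6.07e-05, adjusted p = 0.000159; 45.2% of genes were called lower). A share of reads is also lower where peaks on other genes hold many of a library's reads. How the reads of each library were spread over its peaks was not tested.

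The same direction was found when each library was cut to its 100000 peaks of smallest deposited p-value, which removes most of the difference in list length. The log2 difference in the share of RBFOX2 transcript peaks was then -0.62 (exact permutation p = 0.000319, adjusted p = 0.00153), with 8.99% of genes called lower and a median of 0.0. Without the shallow library, whose list is shorter than that, it was -0.68 (exact permutation p = 6.07e-05, adjusted p = 0.000305; 15.6% of genes were called lower). Peaks of the RBFOX2 antibody on the transcript had a median of 9 to 10 reads, close to the 9 to 11 of its libraries as a whole. With hnRNPA1 the median was 14 to 21 on the transcript against 9 to 11 in the library, with hnRNPI 12 to 23 against 8 to 12, and with hnRNPc, the shallow library left out, 9 to 16 against 8 to 11. Peaks covered 2.67% to 4.19% of the RBFOX2 span with the RBFOX2 antibody, 7.54% to 8.72% with hnRNPA1, 5.69% to 7.65% with hnRNPI and 4.23% to 7.58% with hnRNPc without the shallow library.

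**Figure D1:**
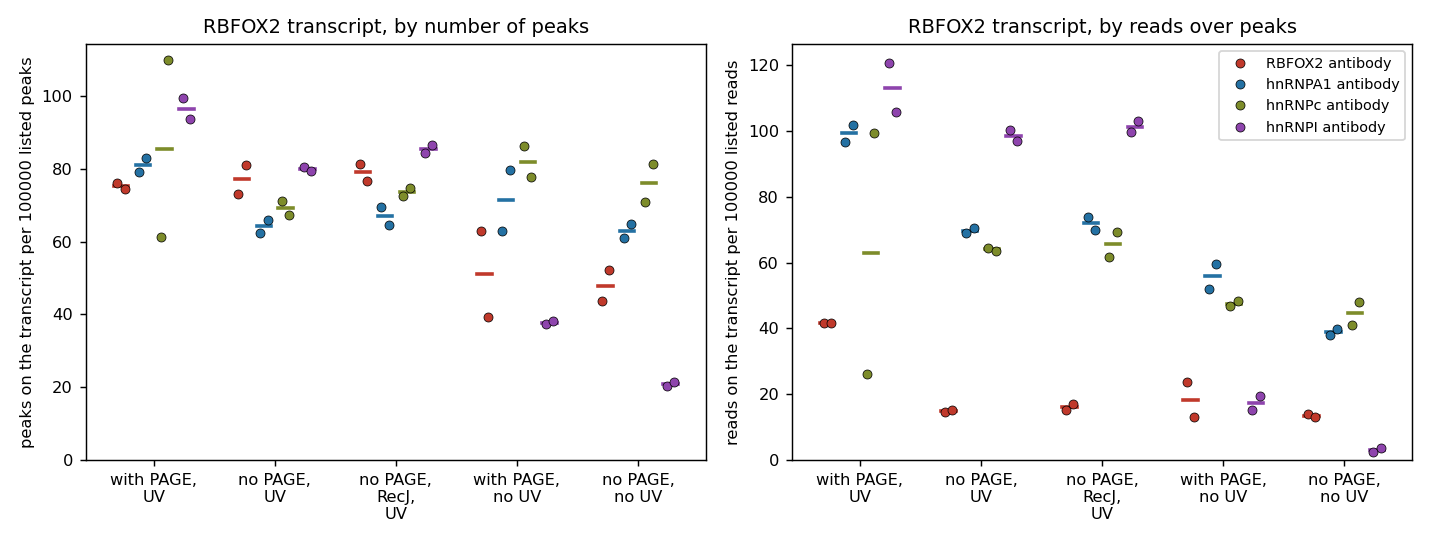
Peaks on the RBFOX2 transcript per 100000 listed peaks (left) and reads over these peaks per 100000 listed reads (right), by library type and antibody; points are libraries and bars the mean of 2 replicates. By peaks, the RBFOX2 antibody (73.1 to 81.4 in the crosslinked libraries) lies among the hnRNPs. By reads, its crosslinked libraries lie between 14.4 and 41.8, below all crosslinked hnRNP libraries except the shallow hnRNPc library at 26.1. hnRNPI stands at 20.4 and 21.5 peaks per 100000 without PAGE and without UV.

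The peaks of the 68 libraries on RBFOX2, joined where they lay less than 30 nt apart, formed 902 sites with a median length of 106 nt. Of these, 204 were listed in 1 library, and the most widely listed site was found in 57 libraries. In the core libraries the RBFOX2 antibody listed 239 sites, hnRNPA1 434, hnRNPc 373 and hnRNPI 319. A site is called recurrent here when every core library of an antibody lists it (the shallow hnRNPc library may miss it). The RBFOX2 antibody had 33 recurrent sites, hnRNPA1 111, hnRNPc 54 and hnRNPI 82, and 2 sites were recurrent with all 4 antibodies. Joined sites can be longer than 1 binding event, up to 2463 nt.

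The site ranked first with the RBFOX2 antibody lay 271.6 kb from the 5′ end, near the 3′ end of the transcript (chr22:36152137-36153416). It carried 110 and 75 reads at its strongest peak with PAGE, 76 and 66 without PAGE, and 81 and 84 with RecJ. That placed it at the 93.5th percentile of reads in its library (median of 6), the highest of the RBFOX2 recurrent sites. hnRNPA1 listed the site in 2 of 6 core libraries with 7 reads in each, hnRNPI in 1 of 6 with 6 reads, and hnRNPc in 5 of 6 with 8 to 24 reads. The strongest peak was 36152717 to 36152838 on chromosome 22. The site was also listed in both RBFOX2 libraries at 10000 cells and both at 1000 cells, and in all 4 RBFOX2 libraries without crosslinking.

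The other RBFOX2 sites of high rank lay toward either end of the transcript. The second, at 260.0 kb (chr22:36164287-36164561), carried 30 to 72 reads with the RBFOX2 antibody, a median percentile of 84.7. It was recurrent with hnRNPA1 (21 to 33 reads, percentile 89.6), while no hnRNPc core library listed it. Without UV, 4 hnRNPA1 and 3 hnRNPc libraries listed it. The third, at 13.6 kb (chr22:36410483-36411169), carried 27 to 52 reads and was recurrent with hnRNPA1 (23 to 37 reads) and hnRNPI (21 to 51 reads). The next, within 0.36 kb of the 5′ end (chr22:36423703-36424417), carried 20 to 72 reads and was listed in 5 of 6 hnRNPA1, 3 of 6 hnRNPc and 2 of 6 hnRNPI core libraries. The last of the named sites, at 278.4 kb (chr22:36145719-36146294), carried 18 to 43 reads and was listed by all 6 hnRNPI libraries with 8 to 16 reads. No hnRNPc core library listed it, but 3 hnRNPc libraries without UV did. All of these named sites were listed in both RBFOX2 libraries at 10000 cells.

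Most recurrent RBFOX2 sites were also listed with an hnRNP, as were most such sites of all genes. Of the 33, 23 were listed in a core library of hnRNPA1 (69.7%, beside 77.0% over all genes). For hnRNPc the number was 22 (66.7% beside 56.8%) and for hnRNPI 28 (84.85% beside 64.67%). With these antibodies 13, 7 and 13 of the 33 were recurrent, for which no share over all genes was computed. Of the 33, 2 (6.06%) lay in no core library of another antibody, beside 9.67% of the 30263 recurrent RBFOX2 sites of all genes joined the same way. The first of these, at 233.4 kb (chr22:36190840-36191227), carried 12 to 38 reads and was listed in 11 libraries: the 6 core RBFOX2 libraries, both at 10000 cells, 1 at 1000 cells and, outside the core, 1 crosslinked hnRNPc library titled 5k and 1 titled 500. No library without crosslinking listed it. The second, at 246.7 kb (chr22:36177628-36177796), carried 5 to 14 reads and was listed without crosslinking in 2 RBFOX2, 4 hnRNPA1, 1 hnRNPc and 1 hnRNPI libraries, that is, with all 3 other antibodies. Both were singled out after their values were seen. hnRNPA1 had 17 of 111 recurrent sites on the transcript in no core library of another antibody (15.3%, beside 17.2% over all genes), hnRNPc 4 of 54 (7.41% beside 15.9%) and hnRNPI 6 of 82 (7.32% beside 21.9%). None of these shares was tested, and the number of libraries of other antibodies and the list lengths differ between these counts.

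The hnRNPs had their highest sites elsewhere on the transcript. hnRNPA1 ranked a site at 124.6 kb first (chr22:36299309-36300399), with 51 to 144 reads and a median percentile of 99.3; the RBFOX2 antibody listed it in all 6 core libraries with 8 to 50 reads. The remaining hnRNPA1 sites lay at 138.8, 126.1, 285.1 and 3.03 kb. hnRNPI ranked first a site at 37.2 kb (chr22:36386826-36387663), with 48 to 203 reads and a percentile of 99.2; hnRNPA1 did not list it in any core library, and the RBFOX2 antibody listed it in all 6 with 11 to 40 reads. The following hnRNPI sites lay at 151.2, 38.4, 261.5 and 171.0 kb. hnRNPc ranked first a site at 252.8 kb (chr22:36171348-36171880), with 29 to 65 reads in 5 libraries and a percentile of 97.4, which hnRNPA1 did not list in any core library. Its other sites lay at 112.2, 103.4, 287.9 and 96.3 kb, and the one at 287.9 kb, near the 3′ end (chr22:36135274-36137736), was listed in all core libraries but the shallow one. All 5 named hnRNPA1 sites and all 5 named hnRNPc sites were also listed in all 4 libraries of their antibody without UV. The named hnRNPI sites were listed in 0 to 3 of the hnRNPI libraries without UV.

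**Figure D2:**
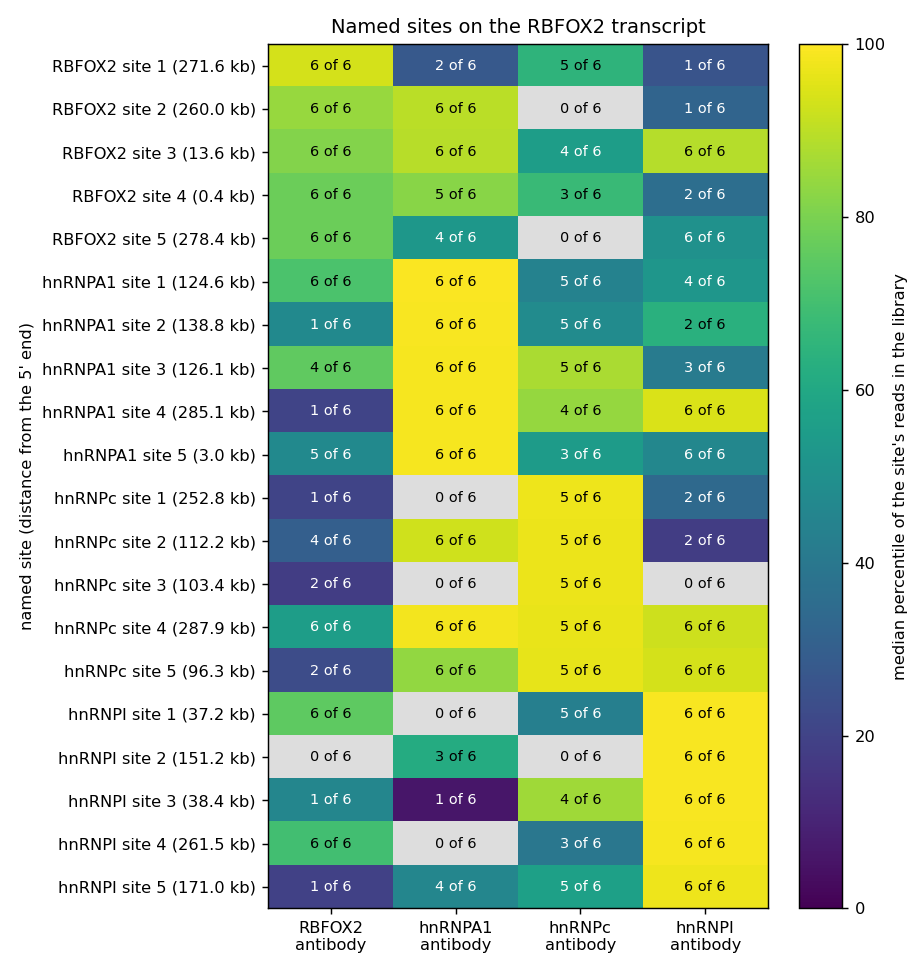
The 5 sites ranked highest with each antibody on the RBFOX2 transcript (rows, with distance from the 5′ end in kb) in the core libraries of each antibody (columns). Colour is the median percentile of the site's reads among all peaks of a library that lists it, the text gives the number of libraries of 6 that list it, and grey marks none; RBFOX2 site 1 is at 93.5 with its own antibody and at 27.8 in 2 hnRNPA1 libraries.

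The position of peaks along the transcript differed between the RBFOX2 antibody and the hnRNPs. The transcript was divided into 15 bins of 20 kb, the shallow library was left out, and each bin's percentage of the transcript's peaks was compared by the exact stratified permutation test, adjusted over the 15 bins. Bins of 1 transcript sum to 100%, so they are not independent, and this test was added after the data were seen. Of the 15 bins, 2 were called higher with the RBFOX2 antibody (13.3%) and 3 lower (20.0%).

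Both bins called higher lay toward the ends of the transcript. The bin of the first 20 kb held 18.4% ± 2.99 (SD, n = 6) of the peaks with the RBFOX2 antibody, against 11.3% ± 1.01 with hnRNPA1 (n = 6), 11.6% ± 0.67 with hnRNPI (n = 6) and 10.5% ± 0.36 with hnRNPc (n = 5). The lowest RBFOX2 library, at 15.2%, exceeded the highest of the others, at 12.8%, and the mean difference over library types was 7.19 percentage points (exact permutation p = 6.07e-05, adjusted p = 0.000456). The bin from 260 to 280 kb, in which the centres of the sites ranked first and last above lie, held 12.6% ± 2.1 with the RBFOX2 antibody, against 4.51% ± 0.81 with hnRNPA1, 7.09% ± 0.8 with hnRNPI and 6.18% ± 1.42 with hnRNPc. There too the groups did not overlap (9.60% to 15.4% against 3.51% to 8.45%), and the difference was 6.68 points (exact permutation p = 6.07e-05, adjusted p = 0.000456). That p is the smallest the 16464 arrangements gave.

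The bins called lower with the RBFOX2 antibody were those from 20 to 40 kb (-3.77 points, adjusted p = 0.00547), 140 to 160 kb (-3.04 points, adjusted p = 0.00433) and 160 to 180 kb (-2.66 points, adjusted p = 0.00182), all by the exact permutation test. Since RBFOX2 lists are shorter, the bins were also compared within the 100000 peaks of smallest p-value of each library, which left 63 to 143 peaks on the transcript. The first bin then held 26.6% against a mean of 11.1% in the others (difference 15.4 points), and the bin from 260 to 280 kb 17.9% against 3.59% (14.3 points), both with an adjusted exact permutation p of 0.000456. The bin from 160 to 180 kb was no longer called there (-1.40 points, adjusted exact permutation p = 0.454). Among the hnRNPs, hnRNPI stood out in the bin from 120 to 140 kb, with 2.89% ± 0.52 against 11.2% to 12.1% for the 3 other antibodies, and from 180 to 200 kb, with 9.95% ± 1.06 against 3.73% to 4.16%; these differences were not tested.

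**Figure D3:**
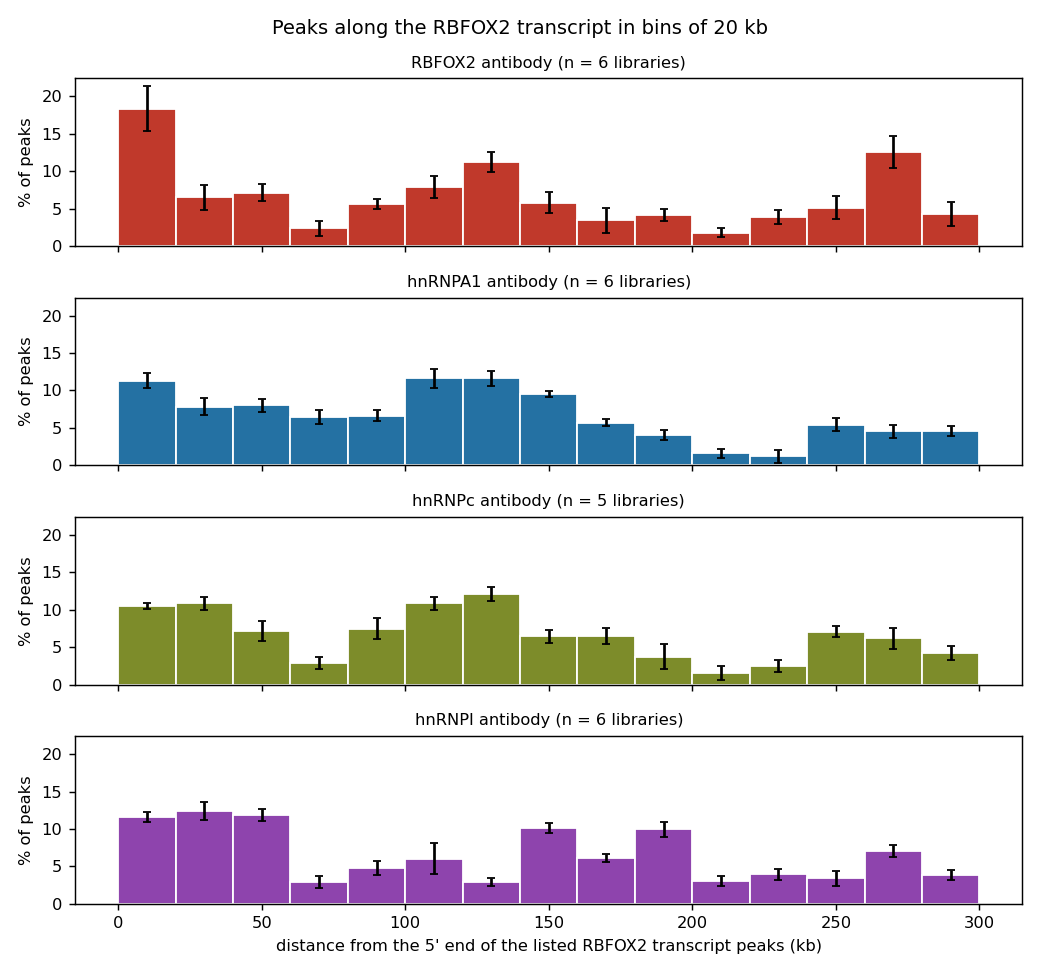
Percentage of the RBFOX2 transcript's peaks in bins of 20 kb from the 5′ end of its listed peaks, by antibody in the core libraries without the shallow hnRNPc library; bars are means and whiskers the SD over libraries. With the RBFOX2 antibody the first bin (18.4%) and the bin from 260 to 280 kb (12.6%) stand above the same bins of the hnRNPs.

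Replicates recovered each other's peaks on the RBFOX2 transcript about as often as elsewhere for RBFOX2, and more often for the hnRNPs. With the RBFOX2 antibody 48.9% ± 7.32 (SD, n = 6 libraries) of the transcript's peaks overlapped a peak of the other replicate by at least 1 nt, beside 48.9% of all peaks. The values were 65.2% beside 53.2% for hnRNPA1, 64.8% beside 53.2% for hnRNPI and 53.4% beside 45.8% for hnRNPc (n = 4 libraries). A peak of the RBFOX2 antibody on the transcript was overlapped by an hnRNPA1 peak in 29.7% of cases and by an hnRNPI peak in 26.7%, beside 24.4% and 17.0% over all RBFOX2 peaks. These percentages rise with the length of the list searched and were not tested.

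Omission of crosslinking asks how much of the signal is RNA that co-purifies. Without UV the RBFOX2 transcript kept many peaks with hnRNPA1 and hnRNPc, and few with hnRNPI and the RBFOX2 antibody. With PAGE, the libraries without UV gave 63.0 and 39.3 peaks per 100000 with the RBFOX2 antibody (19 and 9 peaks), against 76.0 and 74.4 with UV. hnRNPI gave 37.5 and 38.0 (7 and 14 peaks), against 99.4 and 93.7. hnRNPA1 gave 62.9 and 79.6 (103 and 117 peaks), against 79.0 and 83.1, and hnRNPc 86.1 and 77.8 (258 and 233 peaks), against 61.2 and 109.8.

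Without PAGE the picture by antibody was alike. The RBFOX2 antibody gave 43.5 and 52.3 peaks per 100000 without UV (23 and 32 peaks), below 73.1 and 81.1 with UV. hnRNPI gave 20.4 and 21.5 (9 and 17 peaks), below 80.4 and 79.2. hnRNPA1 gave 60.9 and 64.7 against 62.5 and 65.9, and hnRNPc 70.8 and 81.2 against 71.2 and 67.2. With the RBFOX2 antibody and with hnRNPI, then, both libraries without UV lay below both with UV, with PAGE and without it, while the hnRNPA1 and hnRNPc groups overlapped in both. The share of all genes that separate or overlap in this way was not counted, so this is not a result about this transcript. For the RBFOX2 antibody with PAGE, the median log2 difference over all genes was -0.86, lower than the -0.59 of this transcript.

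Over the 4 antibodies together, the loss without UV did not pass the test adjusted over all genes. The log2 difference was -0.53 with PAGE (exact permutation p = 0.0386, adjusted p = 0.319; n = 8 against 8), made up of -0.59 for RBFOX2, -0.19 for hnRNPA1, 0.00 for hnRNPc and -1.33 for hnRNPI. The median over all genes was -0.10, and by antibody -0.86 for RBFOX2, 0.09 for hnRNPA1, 1.02 for hnRNPc and -0.55 for hnRNPI. The hnRNPc group with UV and PAGE includes the shallow library. In this comparison 0 of 14007 genes were called, and 13.7% had an unadjusted exact permutation p below 0.05. Without PAGE the log2 difference of the transcript was -0.61 (exact permutation p = 0.0401, adjusted p = 0.101), made up of -0.68, -0.03, 0.13 and -1.88. There the median over all genes was -0.14, and by antibody, in the same order, -0.24, 0.14, 0.00 and -0.33. That comparison called 29.2% of 14514 genes (12.4% higher and 16.8% lower). By reads, the difference without PAGE was -1.53 and was called (exact permutation p = 0.00154, adjusted p = 0.00832; 32.1% of genes were called lower). So it was at a deposited p below 1e-05, at -1.64 (exact permutation p = 0.00154, adjusted p = 0.0166; 14.5% called lower). Without the shallow hnRNPc library, the difference with PAGE was -0.63 and was called (exact permutation p = 0.00309, adjusted p = 0.0421), among 6.33% of genes called lower. The libraries without UV listed 18690 to 299616 peaks, fewer than their crosslinked counterparts except for hnRNPc with PAGE (299616 and 299307 against 3268 and 214849). In lists cut to 15000 peaks, the difference was -0.60 with PAGE (exact permutation p = 0.127, adjusted p = 0.760) and -1.49 without PAGE (exact permutation p = 0.255, adjusted p = 0.921), and neither was called. The shallow hnRNPc library, part of the comparison with PAGE, is shorter than that cut. With PAGE, neither the reads (-1.19, exact permutation p = 0.0170, adjusted p = 0.154) nor a deposited p below 1e-05 (-1.24, exact permutation p = 0.176, adjusted p = 0.515) gave a call. In the deposited sample records the libraries without UV stand in a block apart from the other 50k libraries, so a difference between such blocks and the omission of UV cannot be told apart.

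The recurrent sites were listed without UV to an extent that depended on the antibody. Of the 33 recurrent RBFOX2 sites, 10 (30.3%, beside 51.0% over all genes) were listed in a library of that antibody without UV and 2 in all 4: the sites at 271.6 and 260.0 kb described above. Of the 82 hnRNPI sites 11 (13.4%, beside 20.7%) were listed without UV and 0 in all 4 libraries (beside 2.5% over all genes). By contrast 75 of 111 hnRNPA1 sites (67.6%, beside 64.4%) were listed without UV, and 40 in all 4 libraries (36.0%, beside 32.2%). For hnRNPc it was 50 of 54 sites (92.6%, beside 88.8%), and 23 in all 4 (42.6%, beside 38.2%). The hnRNPA1 and hnRNPc shares thus lay near those of all genes, and none of these shares was tested. These counts move with the number of peaks listed without UV, which was 18690 to 78945 for hnRNPI and the RBFOX2 antibody and 146915 to 299616 for hnRNPA1 and hnRNPc.

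The further comparison asked whether the share changes when PAGE is omitted. The log2 difference of the RBFOX2 transcript, without PAGE minus with PAGE, was -0.20 (exact permutation p = 0.0509, adjusted p = 0.308; n = 8 against 8), with 0.03 for the RBFOX2 antibody, -0.33 for hnRNPA1, -0.24 for hnRNPc and -0.27 for hnRNPI. The median over all genes was 0.25, and by antibody 0.00 for RBFOX2, 0.05 for hnRNPA1, 0.86 for hnRNPc and 0.00 for hnRNPI. The hnRNPc group with PAGE includes the shallow library. Of 14895 genes, 0 were called, and 16.1% had an unadjusted exact permutation p below 0.05. This comparison uses the same crosslinked libraries with PAGE that serve as the reference for the libraries without UV. By reads, the difference over all antibodies was -0.45 and was not called (exact permutation p = 0.130, adjusted p = 0.612). The median over all genes was -0.028 by reads. The RBFOX2 antibody gave 41.8 and 41.7 reads per 100000 with PAGE and 14.4 and 15.3 without it. hnRNPA1 gave 96.8 and 102.0 against 68.95 and 70.4, and hnRNPI 120.6 and 105.7 against 100.4 and 96.9. hnRNPc gave 26.1 (the shallow library) and 99.55 against 64.6 and 63.6. The change by reads was not tested for any single antibody.

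With fewer cells the RBFOX2 transcript stayed listed. The RBFOX2 antibody gave 65.5 and 65.1 peaks per 100000 at 10000 cells (92 and 109 peaks) and 54.8 and 68.9 at 1000 cells (27 and 50 peaks), all below the 73.1 to 81.4 of the 50k libraries; the RNase amount changed with cell number. These libraries also stand in a block of sample records apart from the 50k ones, so cell number, RNase amount and such a block cannot be told apart. Of the 33 recurrent sites, 25 were listed in both libraries at 10000 cells and 1 in neither, while 9 were listed in both at 1000 cells and 13 in neither. The lists held 140539 and 167449 peaks at 10000 cells and 49247 and 72602 at 1000 cells, against 157375 to 260610 in the core. These counts were not made over the recurrent sites of all genes, so they are not a result about this transcript. With hnRNPc the share was 88.1 and 82.7 at 10000 cells and 87.8 and 92.4 at 1000 cells, and 71.2 to 96.1 in the 8 libraries titled 5k and 500. At 0.025 U of RNase it was 102.6 and 98.3 with hnRNPA1, above both values at 0.005 U, and 92.2 and 86.2 with hnRNPc. The gel regions of hnRNPc held 0 to 8 RBFOX2 peaks each, in lists of 303 to 6716 peaks.

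RBFOX1, the longest of the 3 transcripts, was hardly listed. Its 76 peaks lay in 38 of the 68 libraries, at most 4 in a library, and formed 17 sites, of which 9 were in 1 library and none was recurrent with an antibody. The most widely listed site (chr16:6691728-6691788) was in 19 libraries. The site of most reads (chr16:7447033-7447058) reached 34 reads, with hnRNPA1 at 0.025 U of RNase. In the core libraries the RBFOX2 antibody gave 0 peaks with PAGE in both replicates, 0 and 0 without PAGE and 0 and 1 with RecJ, while hnRNPA1 gave 1 to 3, hnRNPI 1 to 2 and hnRNPc 0 to 3.

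The share of RBFOX1 peaks was called lower with the RBFOX2 antibody, on very few peaks. It averaged 0.104 per 100000 (1 peak in 6 libraries) against 0.389 with the others (28 peaks in 18 libraries), a log2(share + 1) difference of -0.34 (exact permutation p = 0.0116, adjusted p = 0.0281) in a comparison that called 13.6% of genes lower. The call was lost without either RBFOX2 library made with PAGE (adjusted exact permutation p = 0.0628 without replicate 1 and 0.0648 without replicate 2, at the same difference) and without replicate 1 of RBFOX2 with RecJ (-0.22, adjusted p = 0.193). It was also lost at a deposited p below 1e-05 (-0.08, adjusted exact permutation p = 0.895) and in lists of 100000 peaks (-0.06, adjusted p = 1.0). In the RBFOX2 libraries of 1000 cells 2 peaks were listed in each replicate, a share of 4.06 and 2.76. Without UV the log2 difference was 0.05 with PAGE (exact permutation p = 0.843) and 0.19 without PAGE (exact permutation p = 0.343), and omission of PAGE gave 0.07 (exact permutation p = 0.463).

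RBFOX3 was listed mainly with hnRNPI and with RBFOX2. Its 189 peaks lay in 43 of the 68 libraries and formed 101 sites, 69 of them in 1 library. hnRNPI gave 14 and 14 peaks with PAGE, 10 and 8 without PAGE and 16 and 9 with RecJ. The RBFOX2 antibody gave 13 and 14 peaks with PAGE, but 2 in each of its 4 other core libraries. hnRNPA1 gave 0 to 4 and hnRNPc 0 to 2. With PAGE, then, the hnRNPI and RBFOX2 libraries were both apart from hnRNPA1 and hnRNPc, which listed none, and without PAGE the 2 peaks of each RBFOX2 library lay within the 0 to 4 of hnRNPA1. As a share of the library, its 1.24 to 1.27 per 100000 in the libraries without PAGE, with or without RecJ, lay above hnRNPA1 (0.0 to 0.764) and hnRNPc (0.212 to 0.453) and below hnRNPI (2.34 to 4.67).

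The RBFOX3 share averaged 2.78 per 100000 with the RBFOX2 antibody and 1.35 with the others in the core libraries. The log2 difference of 0.81 did not pass the test (exact permutation p = 0.102, adjusted p = 0.168; 32.9% of all genes were called higher), and by library type it was 1.94 with PAGE, 0.29 without PAGE and 0.22 with RecJ. No more than 9 reads lay over an RBFOX3 peak of the core RBFOX2 libraries, and none exceeded the 47.3rd percentile of its library. hnRNPI reached 12 to 25 reads, at percentiles of 50.1 to 85.8.

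Most crosslinked hnRNP peaks on RBFOX3, and few of those of the RBFOX2 antibody, lay in a single stretch. Of the 189 peaks, 121 lay in the fullest window of 20 kb on a grid of that step, from 77160000 to 77180000 on chromosome 17, which was chosen after the values were seen. With UV it held 65 of the 71 peaks of hnRNPI, 15 of the 19 of hnRNPc, 7 of the 11 of hnRNPA1 and 9 of the 49 of the RBFOX2 antibody; no test was made, because the window was chosen on these peaks. The only RBFOX3 site recurrent with an antibody lay in it (chr17:77166588-77166936, 379.4 kb from the 5′ end). hnRNPI listed that site with 13 and 12 reads with PAGE, 10 and 13 without PAGE and 8 and 7 with RecJ, a median percentile of 46.4, and no core library of RBFOX2 or hnRNPc listed it.

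Without UV, the RBFOX3 share was higher with some antibodies and lower with others, none of it tested by antibody. With hnRNPI and without PAGE, 14 and 11 peaks were listed without UV, a share of 31.8 and 13.9 per 100000 in lists of 44086 and 78945 peaks, against 2.83 and 2.34 with UV. With PAGE, the RBFOX2 antibody listed 0 peaks in both libraries without UV, against 13 and 14 with UV. The mean log2 difference over antibodies was -0.58 with PAGE (exact permutation p = 0.306, adjusted p = 0.689) and 0.61 without PAGE (exact permutation p = 0.204, adjusted p = 0.321), and omission of PAGE gave -0.36 (exact permutation p = 0.218, adjusted p = 0.559), none of which passed the test. At 1000 cells the RBFOX2 antibody listed 9 and 2 RBFOX3 peaks, a share of 18.3 and 2.76, so that its replicates differed widely.

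**Figure D4:**
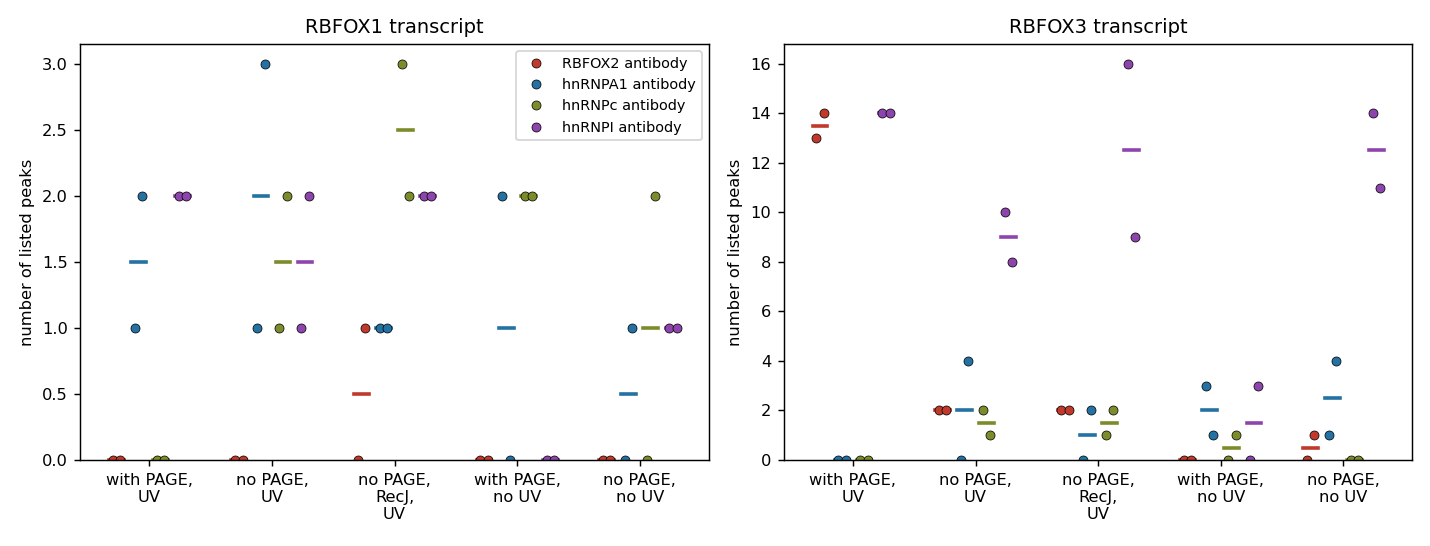
Number of listed peaks on the RBFOX1 (left) and RBFOX3 (right) transcripts, by library type and antibody; points are libraries and bars the mean of 2 replicates. RBFOX1 has at most 3 peaks in any library shown. RBFOX3 has 13 and 14 with the RBFOX2 antibody only in the crosslinked libraries with PAGE, and 8 to 16 with hnRNPI in the crosslinked ones.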

How the data were processed

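Per the submitters' processing notes, reads were handled with bcl2fastq, UMI-tools 1.0.1 and STAR 2.7.3a on hg19; peaks were called per library, with CLIPper per the file names, and the labels name no settings. Each deposited list gives a peak's interval, strand, gene, the authors' p-value and a number read as its reads, with no header. The lists hold no read totals, so depth is unknown and no counting interval was given.

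From these lists the peaks of each gene were counted per library and divided by the library's peaks. Shares were compared as log2(peaks per 100000 + 1) by an exact two-sided permutation of libraries within strata (library type, or antibody), for every gene with at least 10 peaks, with Benjamini-Hochberg adjustment over all genes and calls below 0.05 (Python 3.11.15, numpy 2.4.6, pandas 2.3.3). The smallest p was 4.56e-05 for antibodies (21952 arrangements) and 0.00154 for UV and PAGE (1296 arrangements). On simulated data the antibody test called 98 of 100 genes changed 4-fold and 17 of 100 changed 2-fold (15444 genes). The test of UV with PAGE called 0 of 100 at either fold (13515 genes). An unadjusted exact permutation p below 0.05 was given by 100 and 85 of them for antibodies, and by 100 and 60 for UV. Each simulation changed 200 genes, all of larger share than RBFOX1 and RBFOX3, while by antibody 46.5% of genes were called in the data. These counts are therefore not the power of the tests on these data.

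Named sites are the 5 recurrent sites per antibody on RBFOX2, and up to 2 on RBFOX1 and RBFOX3, with the highest median percentile of reads. The members, lists and comparisons were chosen with earlier results of these data known. Alternatives were another pseudocount, joined peaks, a deposited p-value below 1e-05, reads in place of peaks, no minimum of peaks, the replicate number as a block, each library left out and, chosen after seeing the data, lists of equal length and the shallow library left out of these and of the reads. Sequences and motifs were not analysed here, for lack of an hg19 genome; neither were splicing partners, since no table used here pairs their symbols with Ensembl identifiers, or the RNA-seq of knockout cells.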

Additional observations from a re-analysis of the deposited data

Results flagged for a closer look

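The share of a transcript moved in opposite directions with 2 antibodies, in every library of both, in 6 cases on RBFOX1 and RBFOX3. The differences between antibodies were not tested, and each rests on a few peaks per library. How many of all genes show such a pattern was not counted, so the 6 cases are not a result about these transcripts. Values are log2(peaks per 100000 + 1).

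On RBFOX3, omission of crosslinking with PAGE gave 1.13 with hnRNPA1 (0 and 0 peaks with UV, 3 and 1 without) and -2.77 with the RBFOX2 antibody (13 and 14 with UV, 0 and 0 without), a gap of 3.89. Without PAGE it gave 2.63 with hnRNPI (10 and 8 peaks with UV, 14 and 11 in shorter lists without) and -0.41 with hnRNPc, a gap of 3.04. Omission of PAGE gave 0.41 with hnRNPc, against -1.59 with the RBFOX2 antibody, a gap of 2.0, and against -0.65 with hnRNPI, a gap of 1.06; both libraries of hnRNPc with PAGE, the shallow one among them, listed 0 RBFOX3 peaks.

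On RBFOX1, omission of crosslinking with PAGE gave 0.74 with hnRNPc (0 and 0 peaks with UV, 2 and 2 without) and -0.73 with hnRNPI (2 and 2 with UV, 0 and 0 without), a gap of 1.47. Omission of PAGE gave 0.40 with hnRNPc and -0.22 with hnRNPI, a gap of 0.62. In both cases 1 of the 2 hnRNPc libraries with 0 peaks, with UV and PAGE, is the shallow one of 3268 peaks.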

How the results depend on the processing

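The share of RBFOX2 transcript peaks by antibody, at 0.00, reversed to -0.00044 with a pseudocount of 4, -0.38 at a deposited p below 1e-05, -1.82 by reads and -0.62 in lists of 100000 peaks, and to -1.93 and -0.68 in the last 2 without the shallow hnRNPc library; called were the last 4. Leaving out each library gave -0.032 to 0.025. The RBFOX1 antibody difference lost its call at p below 1e-05 (-0.077) and in lists of 100000 peaks (-0.056, and -0.067 without the shallow library), and ranged from -0.45 to -0.22 over left-out libraries. The RBFOX3 antibody difference reversed to -0.32 at p below 1e-05, to -0.022 by reads and to -0.010 in lists of 100000 peaks, both without the shallow library.

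For omission of UV with PAGE, RBFOX1 reversed to -0.027 with joined peaks and ranged from -0.091 to 0.20 over left-out libraries, RBFOX3 reversed to 0.48 in lists of 15000 peaks, RBFOX2 ranged from -0.63 to -0.42, and the number of genes called rose from 0 to 473 by reads and to 0 to 1297 over left-out libraries, above 0 without replicate 1 (1297) or 2 (484) of hnRNPc with PAGE or replicate 1 of hnRNPI without UV (437). Without PAGE, RBFOX2 was called at p below 1e-05 (-1.64, 14.5% of genes called lower) and by reads (-1.53, 32.1% called lower), and the 4244 called genes became 0 in lists of 15000 peaks. For omission of PAGE, RBFOX2 reversed to 0.61 at p below 1e-05, and RBFOX1 to -0.035 at p below 1e-05, -0.045 by reads and -0.13 in lists of 100000 peaks.

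Along the RBFOX2 transcript, lists of 100000 peaks reversed the bins from 200 kb (to 0.78 points) and from 280 kb (to -4.99 points, called), called the bins from 100 kb (-5.58) and 220 kb (3.59), and ended the call of the bin from 160 kb (-1.40). Over left-out libraries the bin from 240 kb ranged from -0.23 to 0.23 points and that from 280 kb from -0.52 to 0.64, with changes of sign and no call; the first bin kept 6.48 to 7.91 points and that from 260 kb 6.34 to 7.01, called in all 23 cases. Sites numbered 1384 in place of 902 when peaks were joined only where they overlapped, recurrent hnRNPc sites 54 to 88 over left-out libraries (88 without replicate 2 with PAGE), and the mean overlap with another antibody fell from 17.7% to 11.8% at an overlap of at least 50% of the peak. The cause of these changes was not tested.

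Between the groups compared within a stratum, the deviations of same-numbered replicates correlated at -0.04 to 0.04 over genes. Libraries of the same antibody without PAGE, with and without RecJ, were not compared in this way. The replicate block changed no call for the 3 transcripts (RBFOX1 by antibody, adjusted exact permutation p = 0.0403); it gave 2349 called genes without UV and PAGE and turned the bin from 240 kb to 0.049 points.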
